A study of Danio rerio with 11 samples.

Results

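Ovarian follicles of zebrafish that lack both the beta subunit of follicle-stimulating hormone (FSH, gene fshb) and the receptor for luteinising hormone (LH, gene lhcgr) were compared with follicles of control fish. The comparison rested on 7 of the 11 libraries of the study, 4 from fshb/lhcgr mutants and 3 from controls, taken by the genotype in the sample labels. Fish were 180 days old, and their fully grown follicles, above 650 µm in size, were collected over a filter of 600 µm before hand-picking. Controls were heterozygous at all 4 loci (fshb+/-;lhb+/-;fshr+/-;lhcgr+/-), so they were not wild type. The mutants were fshb-/-;lhb+/-;fshr+/-;lhcgr-/-, and thus shared with the controls heterozygosity at lhb, the gene of the LH beta subunit, and at fshr, the gene of the FSH receptor. The remaining 4 libraries came from lhb/lhcgr mutants (fshb+/-;lhb-/-;fshr+/-;lhcgr-/-) and were used to test where the 2 mutants differ. What sort of mutation each locus carries is not given in the sources used here, and the labels do not say that each library is a different fish. P-values therefore measure only the spread between these libraries.

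FSH and LH are pituitary hormones that act on the granulosa and theca cells around the oocyte through Gs-coupled receptors, which raise cAMP. In teleosts FSH is best known for supporting follicle growth and oestrogen synthesis, and LH for driving oocyte maturation and ovulation of the full-grown follicle.

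Counts summed to between 14179252 and 15805763 in the 7 libraries. Across genes, log2 expression correlated at 0.923 to 0.944 between controls, at 0.927 to 0.949 between mutants and at 0.915 to 0.947 between the groups. Libraries of the same group thus resembled each other about as much as libraries of different groups. Oocyte markers (56 genes) summed to between 15076 and 22891 CPM (counts scaled to a library of 1e+06) in every library, and the 19 granulosa markers to between 1101 and 3388 CPM. Both cell types of the labelled tissue were therefore present, while the 10 lymphocyte markers summed to no more than 17.3 CPM. Mitochondrially encoded transcripts took 6.19%, 12.2% and 6.91% of counts in the controls and 11.3%, 9.32%, 11.5% and 6.0% in the mutants. Long genes were read relatively more in the controls: the slope of log2 CPM on log2 gene length was 0.204, 0.137 and 0.0616 in the controls and lay between -0.0183 and 8.57e-05 in the mutants. Since this slope moved with the genotype, the called genes that lost their call with gene length corrected are named. Corrected medians are given for each whole gene list whose median the correction moved by more than 1.5 times.

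Of 19421 genes with enough counts to test, 14 passed an adjusted p of 0.05, which is 0.0721% of them. In the mutants 3 rose (0.0154%) and 11 fell (0.0566%). All adjusted p-values come from the quasi-likelihood test of edgeR, corrected over all genes tested by the Benjamini-Hochberg method, and a log2 difference below 0 is lower in the mutants. Without adjustment 2291 genes (11.8%) had p under 0.05, 1105 higher (5.69%) and 1186 lower (6.11%). Among these 2291 genes the median absolute log2 difference was 0.744, and 783 differed by more than 2-fold, 386 higher and 397 lower. All 4 mutants lay outside the range of the controls for 1381 of them, or 60.3%. Over all genes tested the groups did not overlap for 2025 (10.4%), with mutants above controls for 1022 (5.26%) and below for 1003 (5.16%). Genes whose groups did not overlap and whose means differed by more than 2-fold numbered 302 higher (1.56%) and 331 lower (1.70%). The median log2 difference of all genes was -0.03.

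The number of called genes depended on the test. DESeq2 on the same counts called 124 higher and 154 lower, which included the 14, and limma-voom called 0 higher and 6 lower. With gene length corrected 1 rose and 7 fell, and f2, fut9b, egr2a, si:ch73-74h11.1, zgc:101810 and si:ch211-194m7.5 lost their calls (adjusted p = 0.0553 for each). Leaving out control 1 or fshb/lhcgr mutant 2 left a single call, that of epcam. Most genes below are therefore described by their values per library, and only the 14 are said to have risen or fallen. Genes given below as uncalled are so by edgeR, and DESeq2 called some of them, also where that is not stated.

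The gene of the epithelial cell adhesion molecule, epcam (ENSDARG00000040534), fell the furthest beyond its error. This homophilic membrane protein joins epithelial cells and was among the granulosa markers examined. Its level was 663, 709.6 and 899.6 CPM in the controls and 75.9, 59.8, 46.2 and 58.1 CPM in the mutants. Every mutant lay far below the lowest control. The log2 difference was -3.66 (SE 0.20, 95% interval -4.09 to -3.22, adjusted p = 7.99e-07), a 12.6-fold fall. The gene remained called under all 23 alternative settings, each left-out library included. In lhb/lhcgr mutants, which lack the same receptor, epcam stood at 1112, 921, 957 and 1253 CPM, above the highest control. The direct comparison of the mutants gave -4.14 (SE 0.20, adjusted p = 1.34e-07). In bulk follicles, fewer cells of a type and less RNA per cell cannot be told apart. Over the 19 granulosa markers the median log2 difference was -0.09, or 0.30 without control 2. Of them 11 were negative (57.9%, all genes 52.5%) and epcam alone was called.

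**Figure D1:**
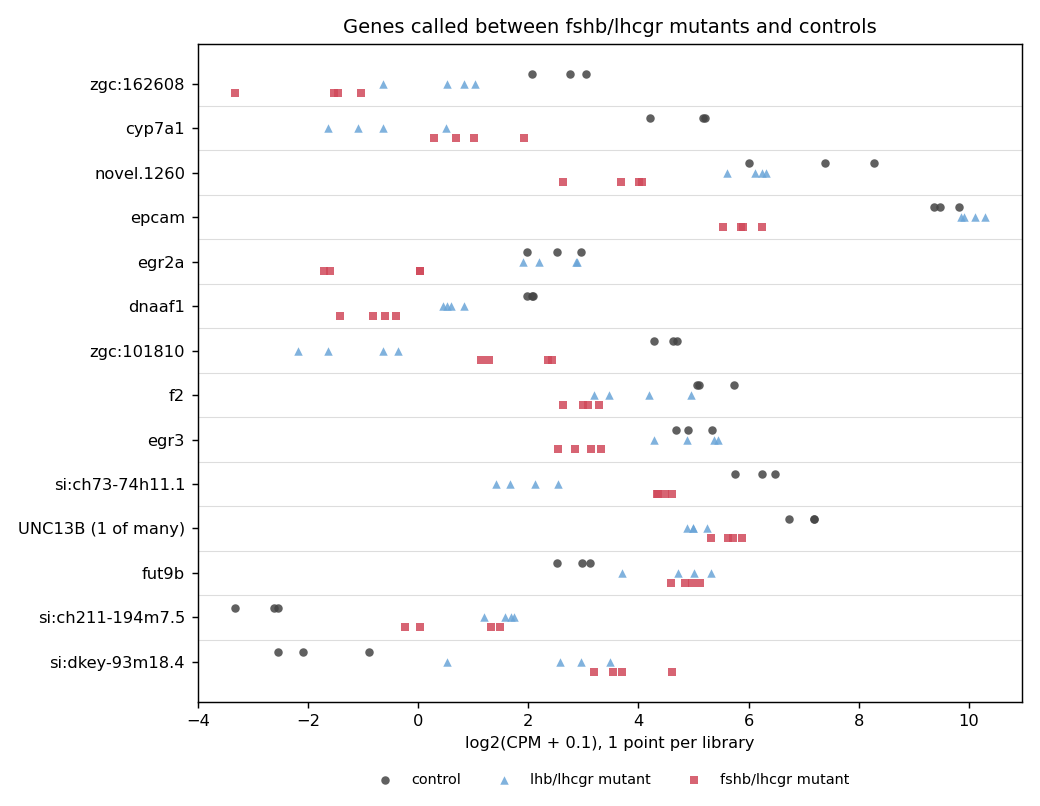
Expression of the 14 called genes in each library, as log2(CPM + 0.1), for 3 controls, 4 fshb/lhcgr mutants and 4 lhb/lhcgr mutants, with 1 point per library. The 11 genes that fell and the 3 that rose separate fshb/lhcgr mutants from controls without overlap, and epcam and egr3 of lhb/lhcgr mutants lie with or near the controls.

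The bile acid enzyme gene cyp7a1 (ENSDARG00000069018), which in mammals encodes the rate-limiting 7-alpha-hydroxylase of cholesterol, fell from 36.8, 18.38 and 35.7 CPM to 1.501, 1.12, 3.70 and 1.92 CPM. The highest mutant stayed well below the lowest control. The log2 difference was -3.88 (SE 0.53, adjusted p = 0.0200). It was also low in lhb/lhcgr mutants, at 0.223 to 1.32 CPM, and the mutants did not differ detectably from each other (1.76, SE 0.53, adjusted p = 0.0968). Transcripts of UNC13B (1 of many) (ENSDARG00000099113), named for a family that primes secretory vesicles in mammals, fell from 147, 146 and 107 to 52.8, 39.7, 58.6 and 49.6 CPM. The 4 mutants lay close together and below all controls. The log2 difference was -1.41 (SE 0.17, adjusted p = 0.0118). As its name says, it is 1 of several copies, between which the authors' counting may have divided reads.

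Among the other genes that fell, 2 encode early growth response factors and are described with their family below. Prothrombin, f2 (ENSDARG00000036041), the zymogen of thrombin, was at 53.3, 34.3 and 33.2 CPM in controls and 6.07, 7.84, 8.33 and 9.66 CPM in mutants (log2 difference -2.33, SE 0.37, adjusted p = 0.0395). The groups were far apart, with mutant 4 the highest mutant. The gene of an assembly factor for ciliary dynein arms, dnaaf1 (ENSDARG00000012030), was low throughout, at 3.81, 4.12 and 4.16 CPM in controls, and fell to 0.273, 0.659, 0.463 and 0.557 CPM (log2 difference -3.02, SE 0.46, adjusted p = 0.0235). The controls agreed closely with each other, and no mutant reached 1 CPM.

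Another 4 of the fallen genes carry only clone or locus names. The gene zgc:162608 (ENSDARG00000069375) fell from 4.08, 6.67 and 8.13 to 0, 0.264, 0.386 and 0.248 CPM (log2 difference -4.78, SE 0.70, adjusted p = 0.0200), and zgc:101810 (ENSDARG00000004658) fell from 19.3, 25.8 and 24.6 to 2.12, 5.27, 5.02 and 2.35 CPM (log2 difference -2.65, SE 0.44, adjusted p = 0.0470). In mutants the former was nearly without counts and the latter kept some expression in each library. Transcripts of si:ch73-74h11.1 (ENSDARG00000062750) fell from 89.4, 75.5 and 54.0 to 19.99, 24.5, 20.3 and 22.3 CPM (log2 difference -1.75, SE 0.26, adjusted p = 0.0200). A gene model without an Ensembl identifier fell from 168, 310.1 and 64.6 to 16.1, 16.7, 12.7 and 6.07 CPM (log2 difference -3.81, SE 0.48, adjusted p = 0.0200), with a wide spread between controls. The fall was smaller than in lhb/lhcgr mutants for si:ch73-74h11.1, which stood there at 2.56 to 5.75 CPM (direct comparison 2.48, adjusted p = 0.000398). The same held for zgc:101810, at 0.120 to 0.672 CPM in lhb/lhcgr mutants (3.25, adjusted p = 0.00521). It was the opposite for the gene model without an identifier, at 48.7 to 79.4 CPM there (-2.41, adjusted p = 0.0208), although that call was lost in 4 of the 11 fits that left out 1 library.

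Of the 3 genes that rose, fut9b (ENSDARG00000067524), which encodes an alpha-1,3-fucosyltransferase that adds fucose to surface glycans, was the most abundant. Its level was 7.76, 5.61 and 8.57 CPM in controls and 31.3, 24.1, 34.7 and 28.7 CPM in mutants (log2 difference 2.02, SE 0.33, adjusted p = 0.0444). All mutants lay well above the highest control. The locus si:dkey-93m18.4 (ENSDARG00000092967), annotated by RefSeq (GRCz12tu) as a long non-coding RNA, rose from 0.134, 0.0710 and 0.441 to 12.97, 11.5, 9.03 and 24.3 CPM (log2 difference 5.99, SE 0.81, adjusted p = 0.0200). It was close to absent from the controls and present in all mutants. The third, si:ch211-194m7.5 (ENSDARG00000098799), rose from 0, 0.0710 and 0.0630 to 0.751, 2.70, 0.926 and 2.41 CPM (log2 difference 5.04, SE 0.83, adjusted p = 0.0444), which stays low. In lhb/lhcgr mutants they stood at 12.8 to 39.7, 1.34 to 11.11 and 2.201 to 3.25 CPM, and no difference between the mutants was detectable (adjusted p = 0.902, 0.273 and 0.490).

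Apart from epcam, the called genes were sensitive to the processing and to single libraries: each was called under between 7 and 21 of the 23 alternatives. UNC13B (1 of many) kept its call in 21, cyp7a1 and si:dkey-93m18.4 in 19, and egr3, si:ch73-74h11.1, zgc:162608 and the gene model in 16. The weakest were si:ch211-194m7.5 with 7 and egr2a with 9. Of the 11 alternatives that left out 1 library, UNC13B (1 of many) was called in 9, si:dkey-93m18.4 in 8, and cyp7a1 and the gene model in 7. There egr3, si:ch73-74h11.1 and zgc:162608 were called in 5, f2 in 4, and dnaaf1, egr2a and zgc:101810 in 3. The lowest counts were 2 for fut9b and 1 for si:ch211-194m7.5. The direction of the called genes never turned.

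The targeted receptor gene lhcgr kept its transcripts, at 153, 336 and 104 CPM in controls and 149, 162, 171 and 102 CPM in mutants. Control 2 was the highest library and the groups overlapped (log2 difference -0.44, SE 0.34, adjusted p = 0.648). Its level thus does not check the genotype, since the alleles are not described. The other targeted gene, fshb, had 0, 2 and 1 counts in controls and 5, 0, 0 and 4 in mutants, below the filter in this non-pituitary tissue. Transcripts of lhb, for which both groups are heterozygous, were at 19.7, 38.1 and 28.5 CPM in controls and 3.21, 1.65, 7.49 and 3.78 CPM in mutants. No mutant reached the lowest control (log2 difference -2.84, SE 0.89, adjusted p = 0.293), and with only these 7 libraries in the fit the adjusted p was 0.0400. The FSH receptor gene fshr was at 5.42, 22.5 and 9.14 CPM in controls and 15.2, 32.0, 19.8 and 13.3 CPM in mutants (log2 difference 0.70, SE 0.41, adjusted p = 0.532), with control 1 lowest and mutant 2 highest.

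Immediate early genes, which cells transcribe within minutes of a stimulus without new protein synthesis, had the lowest median log2 difference of the 27 lists. Of 65 listed genes 60 were tested, and 53 had a negative difference, against 52.5% of all genes. Without adjustment 27 had p under 0.05 lower (all genes 6.11%) and 1 higher (all genes 5.69%). The mutants lay below all controls for 19 (all genes 5.16%) and above for 1. The median log2 difference was -0.77, and 2 members fell at an adjusted p under 0.05 (all genes 0.0566%). DESeq2 called 13 of the 60 lower, against 154 of all 19421 genes.

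The early growth response family encodes zinc finger factors that act soon after receptor stimulation. Transcripts of egr3 fell from 29.9, 40.4 and 25.5 CPM to 5.73, 9.89, 8.72 and 7.12 CPM, a log2 difference of -2.02 (SE 0.29, adjusted p = 0.0200). The same family's egr2a fell from 5.62, 7.66 and 3.84 to 0.205, 0.923, 0.232 and 0.929 CPM (-3.28, SE 0.54, adjusted p = 0.0444). In both genes the mutants lay well below every control. Their paralogue egr2b was at 5.49, 23.4 and 7.31 CPM in controls and 1.02, 2.70, 1.70 and 1.49 CPM in mutants, also without overlap (log2 difference -2.80, SE 0.57, adjusted p = 0.111). The most abundant member, egr1, was at 485, 1218 and 644 CPM in controls and 323, 539.6, 398 and 227 CPM in mutants, where mutant 2 exceeded control 1 (log2 difference -1.07, SE 0.34, adjusted p = 0.287). For egr4 the difference was -2.90 (SE 0.92, adjusted p = 0.283). Over the 11 zinc finger members tested the median was -1.04, and 6 had p under 0.05, all lower (all genes 6.11%).

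The AP-1 factors, dimers of Fos, Jun and ATF proteins, had a like pattern with no call. Transcripts of fosb were at 58.0, 192 and 44.8 CPM in controls and 7.64, 12.3, 7.56 and 2.79 CPM in mutants. Control 2 was far above the other controls, and each mutant was still below the lowest control (log2 difference -3.70, SE 0.57, adjusted p = 0.0518). For jund the values were 171, 258 and 100.5 CPM and 58.1, 54.2, 32.0 and 29.7 CPM (log2 difference -2.02, SE 0.34, adjusted p = 0.0518). For fosab, the zebrafish c-fos, they were 309, 666 and 337 CPM and 129.7, 214, 129 and 96.7 CPM (log2 difference -1.62, SE 0.31, adjusted p = 0.104). Neither gene's groups overlapped. Next came jun at -1.70 (adjusted p = 0.158), fosl1a at -1.87 (adjusted p = 0.145), atf3 at -1.07 (adjusted p = 0.252) and junbb at -0.98 (adjusted p = 0.282). Of 13 AP-1 members tested 12 were negative (all genes 52.5%), with a median of -1.14. Of the 13, 8 had p under 0.05 lower (all genes 6.11%). The exception was batf3, at 10.8, 13.1 and 22.1 CPM in controls and 24.9, 31.5, 27.3 and 24.5 CPM in mutants (log2 difference 0.82, SE 0.27, adjusted p = 0.293), an AP-1 partner best known from dendritic cells of mammals.

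**Figure D2:**
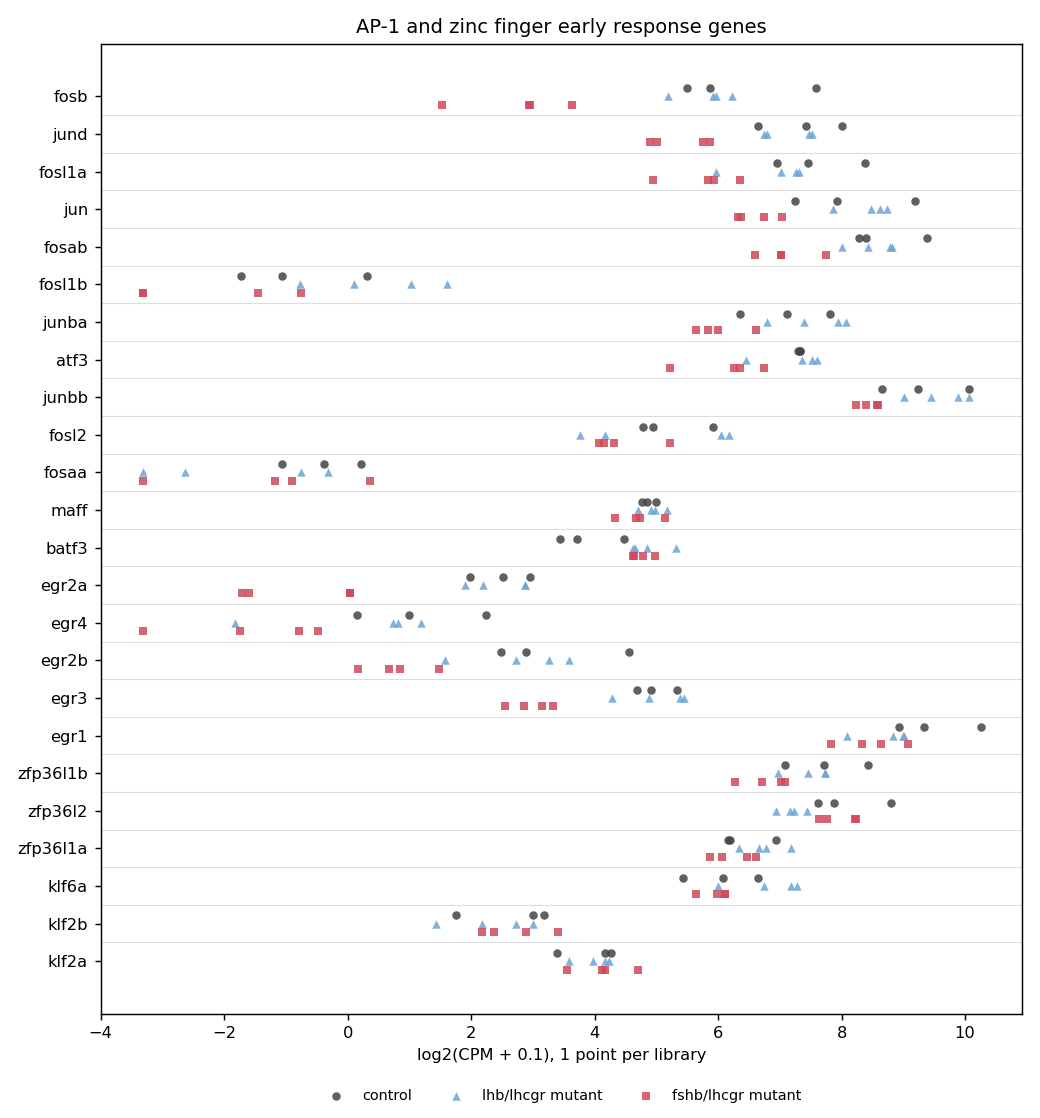
Early response transcription factors in each library, as log2(CPM + 0.1), for the 24 tested AP-1 and zinc finger genes. All 4 fshb/lhcgr mutants lie below all 3 controls for 7 of the 13 AP-1 genes and 4 of the 11 zinc finger genes. The same holds for 5.16% of all genes tested. Control 2 is often the highest library.

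Other early response genes were lower by smaller amounts. The radiation-inducible regulator ier5 was at 65.4, 161 and 59.9 CPM in controls and 29.4, 34.14, 29.9 and 15.9 CPM in mutants (log2 difference -1.80, SE 0.37, adjusted p = 0.120), without overlap. The antiproliferative gene btg2 differed by -0.74 (adjusted p = 0.159) and the cAMP-responsive repressor gene crema by -1.70 (adjusted p = 0.254). All 8 listed MAP kinase phosphatases, which switch off the kinases upstream of these factors, had a negative difference (all genes 52.5%). Their median was -0.59, and 2 had p under 0.05 lower (all genes 6.11%). Among them dusp1 was nearest to 0 (-0.05, adjusted p = 0.943), and its sign turned when control 1 or mutant 4 was left out. Over all 18 tested genes whose symbol starts with dusp, 11 were negative and 7 positive, with a median of -0.31. The 17 heat shock genes had a median of 0.07 with 1 at p under 0.05.

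A single control weighed on the size of the early gene difference. Control 2 was the highest of the 3 controls for 45 of the 60 genes (75%), against 37.6% of all genes tested, and mutant 4 was the lowest mutant for 28. Without control 2 the median was -0.53, with 48 negative, 14 at p under 0.05 lower and 1 called. That 1 was fosb (adjusted p = 0.0464), while egr3 and egr2a lost their calls (adjusted p = 0.0661 and 0.106). Without control 1 it was -0.94, with 56 negative, 31 at p under 0.05 lower and 0 called. The median was -0.70 with gene length corrected, and egr3 was then the only called member.

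The direct comparison of the mutants bore on the same family without shared controls. Over all genes tested it called 460 genes (2.37%), 282 higher (1.45%) and 178 lower (0.917%), in fshb/lhcgr mutants. These counts ran from 75 to 504 and from 29 to 291 when single libraries were left out. Libraries 3 and 4 of the lhb/lhcgr group correlated at 0.979, and the next highest pair in the study at 0.949. The fit treats these libraries as separate replicates, and whether they are was not tested. Dropping library 3 of that group gave 94 higher and 35 lower, and dropping library 4 gave 75 and 29. Dropping fshb/lhcgr mutant 1 or 3 also lowered the counts, to 118 and 41 or to 107 and 55. With libraries scaled by size only, the split was 200 higher and 318 lower and the median of all genes moved from -0.02 to -0.15. Of the 60 early response genes 0 were called higher and 13 lower in fshb/lhcgr mutants, and this count ran from 2 to 18 when single libraries were left out, with 2 without lhb/lhcgr mutant 3. Calls of egr3 (-2.09, adjusted p = 0.00313) and egr2a (-3.27, adjusted p = 0.00792) held in each of the 11 left-out fits. Those of fosb (-2.95, adjusted p = 0.0208), jund (-1.73, adjusted p = 0.0174), jun (-1.81, adjusted p = 0.0239), fosab (-1.39, adjusted p = 0.0288) and ier5 (-1.78, adjusted p = 0.0240) held in 6 to 8. Against controls, lhb/lhcgr mutants had a median of 0.01 over these genes.

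Genes of gonadotropin signalling and cAMP handling run from hormone and receptor to nucleus, and lhcgr, fshr and lhb, described above, are among them. Of 40 tested, 28 were negative (all genes 52.5%), and the median was -0.29. Before adjustment 2 had p under 0.05 higher (all genes 5.69%) and 4 lower (all genes 6.11%), lhb among the latter. None of the 40 was called. Phosphodiesterases, which break down cAMP, had a negative difference in all 9 listed genes tested, with a median of -0.44 and 2 at p under 0.05. Over all 21 tested genes whose symbol starts with pde, 13 were negative and 8 positive, with a median of -0.27. The leading one, pde4ba, was at 442, 633 and 507 CPM in controls and 219, 244, 279.5 and 188 CPM in mutants. All mutants were well below all controls (log2 difference -1.18, SE 0.28, adjusted p = 0.167). Its relative pde4d was at 12.98, 17.8 and 11.5 CPM and 7.78, 7.71, 9.03 and 8.36 CPM (log2 difference -0.78, SE 0.35, adjusted p = 0.405), also without overlap. Adenylate cyclases, which make cAMP, went both ways. Transcripts of adcy5 were at 69.5, 32.1 and 40.7 CPM in controls and 28.7, 23.1, 15.8 and 37.3 CPM in mutants (log2 difference -0.85, SE 0.31, adjusted p = 0.329). The low-level adcy8 was at 0.937, 1.21 and 0.756 CPM and 3.62, 2.90, 7.49 and 1.3 CPM (log2 difference 1.98, SE 0.60, adjusted p = 0.278). The first overlapped between groups and the second did not.

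Steroid receptors carry the maturation and ovulation signals into oocyte and follicle cells. Of 14 tested 11 were negative (all genes 52.5%), with a median of -0.22, although this became -0.01 without control 2. The membrane progestin receptor gene paqr7a, whose protein acts in oocyte maturation of fish, was at 7.36, 7.10 and 7.31 CPM in controls and 1.02, 0.659, 0.540 and 1.92 CPM in mutants. The controls were almost equal and every mutant was below 2 CPM (log2 difference -2.79, SE 0.59, adjusted p = 0.120), and DESeq2 called it (adjusted p = 0.00105). The related paqr8 was near the detection limit, at 0.870, 0.568 and 1.70 CPM and 1.501, 1.25, 0.154 and 0.681 CPM (log2 difference -0.22, SE 1.09, adjusted p = 0.963). The nuclear progestin receptor gene pgr, needed for ovulation in zebrafish, was at 206, 398 and 215 CPM in controls and 191, 212, 269 and 169 CPM in mutants (log2 difference -0.38, SE 0.27, adjusted p = 0.613). Its range in mutants lay around the lower controls, and control 2 was the highest library. The oestrogen receptor gene esr2b was at 32.3, 69.4 and 34.0 CPM and 26.6, 22.7, 33.6 and 26.1 CPM (log2 difference -0.73, SE 0.28, adjusted p = 0.352). Its groups overlapped, and without control 2 the difference was -0.28 (adjusted p = 0.697).

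Steroid synthesis genes had no shared shift: 13 of 27 were positive, 14 negative, 2 had p under 0.05 in each direction, and the median was -0.03. With gene length corrected the median was -0.16, and without control 2 it was 0.13. Cholesterol import by star stood at 34, 16.4 and 26.03 CPM in controls and 14.1, 17.0, 21.5 and 48.0 CPM in mutants, with mutant 4 highest of all (log2 difference -0.03, SE 0.41, adjusted p = 0.987). The side-chain cleavage gene cyp11a1 was at 354, 365 and 316 CPM and 524, 405, 500.2 and 348 CPM (log2 difference 0.36, SE 0.18, adjusted p = 0.443). The 17-hydroxylase gene cyp17a1 was at 88.7, 129 and 126 CPM and 129, 130.2, 111 and 114 CPM (log2 difference 0.08, SE 0.17, adjusted p = 0.897). Groups overlapped for all 3. Aromatase, cyp19a1a, which makes oestrogen, was low at this stage, at 2.68, 3.62 and 6.81 CPM and 2.32, 11.6, 1.47 and 4.83 CPM (log2 difference 0.21, SE 0.89, adjusted p = 0.955), with mutant 2 apart from the rest. The oestrogenic hsd17b1 was at 9.37, 22.8 and 11.7 CPM and 15.1, 36.6, 20.1 and 17.0 CPM (log2 difference 0.60, SE 0.34, adjusted p = 0.503). The nearest to a call was hsd17b12b, of a family that also elongates fatty acids, at 233, 235 and 177 CPM and 119, 119, 173 and 98.5 CPM without overlap (log2 difference -0.76, SE 0.20, adjusted p = 0.214). Its paralogue hsd17b12a went the other way, at 94.1, 147 and 144 CPM and 154, 176, 196 and 157 CPM (log2 difference 0.41, SE 0.19, adjusted p = 0.416). The 95% interval of the log2 difference was -0.29 to 0.45 for cyp17a1 and -1.72 to 2.14 for cyp19a1a, so the data bound the first far more tightly than the second.

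Cholesterol and bile acid genes, cyp7a1 among them, were mostly lower in level. Of 36 tested 26 were negative (all genes 52.5%), and 7 had p under 0.05 lower (all genes 6.11%) and 0 higher (all genes 5.69%). The mutants lay below all controls for 9 (all genes 5.16%). The median was -0.28 and stayed between -0.37 and -0.21 under the 23 alternatives. The sensor that escorts SREBP factors to the Golgi, scap, was at 23.4, 24.1 and 20.1 CPM in controls and 11.3, 10.3, 8.80 and 11.4 CPM in mutants (log2 difference -1.10, SE 0.24, adjusted p = 0.133). The sterol-responsive factor gene srebf2 was at 75.5, 74.9 and 70.7 CPM and 43.9, 24.2, 30.3 and 54.0 CPM (log2 difference -0.95, SE 0.24, adjusted p = 0.199). Its relative srebf1, which drives fatty acid synthesis, was at 31.6, 29.8 and 21.3 CPM and 13.9, 11.3, 10.96 and 17.1 CPM (log2 difference -1.05, SE 0.26, adjusted p = 0.199). None of the 3 overlapped between groups, and DESeq2 called each (adjusted p = 0.00329, 0.0316 and 0.0261). Of the enzymes further down, the squalene epoxidase gene sqlea was at 3.01, 7.24 and 4.66 CPM and 0.819, 1.45, 1.23 and 0.805 CPM (log2 difference -2.20, SE 0.82, adjusted p = 0.337). The lanosterol demethylase gene cyp51 differed by -1.11 (adjusted p = 0.397) and the last-step reductase gene dhcr7 by -0.70 (adjusted p = 0.382).

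Ovulation genes, which act when the follicle wall opens, had a median of -0.17 over 60 tested, with 2 at p under 0.05 higher and 5 lower, and the median ran from -0.31 to -0.08 over left-out libraries. The prostaglandin transporter gene slco2a1 was at 7.03, 5.18 and 3.09 CPM in controls and 0.751, 1.25, 0.772 and 1.61 CPM in mutants, which did not overlap (log2 difference -2.20, SE 0.44, adjusted p = 0.108). In lhb/lhcgr mutants it stood at 11.8, 5.87, 14.2 and 16.4 CPM, and the mutants differed by -3.45 (SE 0.43, adjusted p = 0.00193), a call that held in each left-out fit. The prostaglandin synthase gene ptgs2b was at 18.5, 18.5 and 10.8 CPM and 17.3, 22.9, 20.5 and 12.6 CPM with overlap (log2 difference 0.20, SE 0.26, adjusted p = 0.804). The plasminogen activator gene plaua was at 5.55, 5.46 and 20.5 CPM and 0.955, 1.12, 4.01 and 1.49 CPM (log2 difference -2.48, SE 0.86, adjusted p = 0.327), and control 3 was the highest. The epithelial metalloproteinase gene mmp28 was at 16.4, 37.7 and 27.2 CPM and 22.2, 6.39, 6.02 and 7.80 CPM (log2 difference -1.35, SE 0.56, adjusted p = 0.381). Mutant 1 lay among the controls there, and lhb/lhcgr mutants held 0.0604 to 1.04 CPM (direct comparison 4.34, adjusted p = 0.00625). The vasoconstrictor gene edn1 was higher, at 5.89, 13.3 and 14.4 CPM and 25.9, 22.6, 38.7 and 17.5 CPM (log2 difference 1.23, SE 0.38, adjusted p = 0.282), without overlap. The angiogenic vegfab was at 13.4, 17.5 and 12.2 CPM and 7.57, 10.5, 7.49 and 6.93 CPM (log2 difference -0.82, SE 0.33, adjusted p = 0.372).

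Growth factor genes of the TGF-beta, insulin-like and other families had a median of -0.15 over 61 tested, and 2 had p under 0.05, both lower. These were kitb, a receptor for kit ligand, at 1.54, 3.90 and 3.09 CPM and 0.819, 0.330, 0.617 and 0.248 CPM (log2 difference -2.49, SE 0.77, adjusted p = 0.282), and hgfa, hepatocyte growth factor, at 4.42, 0.426 and 0.441 CPM and 0.0682, 0.264, 0.617 and 0.186 CPM (log2 difference -2.62, SE 1.01, adjusted p = 0.352). Both were low in every library. The list's median was 0.18 without control 2 and -0.04 with gene length corrected.

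**Figure D3:**
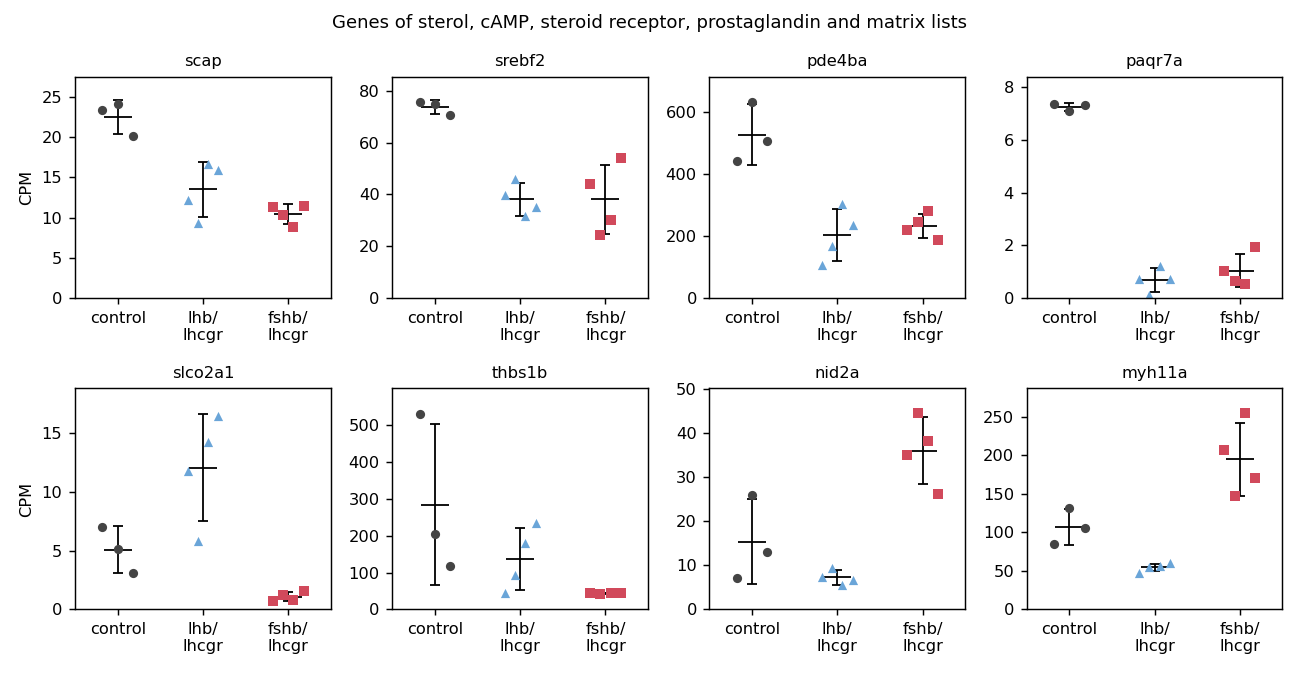
CPM of 8 genes in each library of the 3 groups, with the mean and SD of each group. The genes scap, srebf2, pde4ba, paqr7a, slco2a1 and thbs1b are lower in fshb/lhcgr mutants than in controls and nid2a and myh11a are higher, without overlap of those groups. None was called by edgeR, while DESeq2 called all 8.

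Oocyte genes were higher in level. Of 56 tested, 48 were positive against 47.5% of all genes. Before adjustment 15 had p under 0.05 higher (all genes 5.69%) and 0 lower (all genes 6.11%). All 4 mutants lay above the controls for 10 (all genes 5.26%). The median was 0.33 and ran from 0.20 without control 1 to 0.52 without control 3. None was called. Summed, the markers stood at 15076, 16201 and 20264 CPM in controls and 22219, 22556, 22891 and 21849 CPM in mutants, where every mutant exceeded every control. All 28 egg envelope and maternal genes were positive, with a median of 0.39.

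The homeobox gene lhx8a, a regulator of oocyte development, was at 73.1, 80.0 and 97.1 CPM in controls and 109, 147, 120.3 and 115 CPM in mutants (log2 difference 0.56, SE 0.18, adjusted p = 0.282). The germ plasm gene dnd1, which protects germ cell mRNAs, was at 49.3, 81.0 and 89.6 CPM and 115, 162, 92.7 and 157 CPM (log2 difference 0.85, SE 0.24, adjusted p = 0.239). For the germ plasm organiser gra the values were 49.3, 51.2 and 50.6 CPM and 79.7, 65.5, 80.8 and 83.9 CPM (log2 difference 0.62, SE 0.18, adjusted p = 0.242). None of these overlapped between groups. The oocyte-enriched carbonic anhydrase gene ca15b was at 800.2, 883 and 1329.7 CPM and 1633, 1725, 1989 and 1589 CPM (log2 difference 0.79, SE 0.22, adjusted p = 0.239). Nucleoplasmin npm2a, a histone chaperone of the egg, was at 64.0, 54.2 and 64.0 CPM and 82.6, 78.6, 103 and 74.6 CPM (log2 difference 0.48, SE 0.17, adjusted p = 0.328). Egg envelope genes overlapped more: zp3a.1 was at 918, 898 and 1215 CPM and 1531, 1376, 1903 and 1214 CPM (log2 difference 0.58, SE 0.20, adjusted p = 0.314) and zp3b differed by 0.25 (adjusted p = 0.708). The maternal gene zar1 was at 138, 394 and 458 CPM and 393, 604, 359.9 and 555 CPM (log2 difference 0.53, SE 0.34, adjusted p = 0.567), with control 1 alone at a low value.

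Oocyte maturation and cell cycle genes had a median of 0.10 over 42 tested, with 6 at p under 0.05, all higher (all genes 5.69%). The cyclin gene ccna1 was at 351, 708 and 645 CPM in controls and 1139.7, 1209, 1061 and 824 CPM in mutants (log2 difference 0.90, SE 0.24, adjusted p = 0.214), and ccnb1, the regulatory subunit of maturation-promoting factor, was at 842, 1171 and 1371 CPM and 1525, 2276, 1421 and 1742 CPM (log2 difference 0.63, SE 0.22, adjusted p = 0.321). Neither overlapped between groups. The G1/S cyclin genes ccne1 and ccne2 had negative differences of -0.69 (adjusted p = 0.459) and -0.82 (adjusted p = 0.448). The gene of the anaphase-promoting complex inhibitor fbxo5 was at 407, 556 and 539 CPM and 601, 747, 711 and 877 CPM (log2 difference 0.55, SE 0.17, adjusted p = 0.282). Yolk proteolysis and hydration genes, 26 tested, had a median of -0.13 with 0 at p under 0.05 in edgeR's test before adjustment, and the median was 0.035 without control 3.

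The cells of the follicle wall were followed by their markers. Matrix and stroma genes were higher in level: 28 of 34 were positive (all genes 47.5%), and the median was 0.52, or 0.67 with gene length corrected. Before adjustment 11 had p under 0.05 higher (all genes 5.69%) and 1 lower (all genes 6.11%). Without control 1 the median was 0.41 and 3 had p under 0.05 higher. Among the 16 listed collagens 15 were positive. Over all 43 tested genes whose symbol is col and a number, 33 were positive and 10 negative, with a median of 0.27. Of these 43, 9 had p under 0.05 higher and 2 lower. The listed col1a2 was at 35.7, 49.5 and 57.0 CPM in controls and 55.3, 69.7, 106 and 67.7 CPM in mutants, with mutant 1 inside the control range (log2 difference 0.66, SE 0.22, adjusted p = 0.306). The basement membrane gene nid2a was at 7.09, 26.04 and 12.98 CPM and 35.1, 44.5, 38.3 and 26.2 CPM (log2 difference 1.23, SE 0.37, adjusted p = 0.270). The proteoglycan gene dcn was at 7.36, 12.5 and 16.3 CPM and 21.5, 26.7, 35.3 and 19.4 CPM (log2 difference 1.09, SE 0.30, adjusted p = 0.224). In both, all mutants were above all controls. The thrombospondin gene thbs1b, which encodes an antiangiogenic matrix protein, stood apart from the list at 531, 205 and 118 CPM and 45.6, 41.5, 45.2 and 43.6 CPM (log2 difference -2.69, SE 0.57, adjusted p = 0.158). Its 4 mutants were nearly equal while the controls spread widely.

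Against lhb/lhcgr mutants, 12 of the 34 matrix genes were called higher in fshb/lhcgr mutants (all genes 1.45%) and 0 lower (all genes 0.917%), and the higher count ran from 6 to 18 over left-out libraries. They included 8 of the 16 listed collagens. For col1a2 the difference was 1.76 (SE 0.21, adjusted p = 0.00163) and for nid2a 2.31 (SE 0.35, adjusted p = 0.00521), and both calls held in each left-out fit. Their levels in lhb/lhcgr mutants were 19.7 to 23.5 CPM and 5.50 to 9.48 CPM, against the values above.

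Theca markers, 13 tested, had a median of 0.18, with 2 at p under 0.05 higher and 1 lower, and the median was -0.03 without control 1. The smooth muscle myosin gene myh11a was at 85.5, 132 and 105 CPM in controls and 208, 147, 255 and 170.4 CPM in mutants, without overlap (log2 difference 0.86, SE 0.20, adjusted p = 0.167). It stood at 47.8 to 59.8 CPM in lhb/lhcgr mutants, and the mutants differed by 1.84 (SE 0.19, adjusted p = 0.000398), which held in each left-out fit. The relaxin-family hormone gene insl3, made by theca and Leydig cells, was lower, at 2.01, 3.19 and 2.21 CPM and 0.955, 0.132, 0.849 and 0.310 CPM (log2 difference -2.13, SE 0.59, adjusted p = 0.229). Granulosa markers apart from epcam included the factor genes gata4, at 31.1, 139 and 61.3 CPM and 30.7, 42.6, 27.8 and 33.2 CPM (log2 difference -1.20, SE 0.38, adjusted p = 0.289), and foxl2b, at 47.5, 105 and 64.0 CPM and 36.4, 42.8, 48.7 and 47.4 CPM (log2 difference -0.72, SE 0.27, adjusted p = 0.341). Both were highest in control 2 and overlapped, and without it they differed by -0.46 and -0.35 (adjusted p = 0.540 and 0.621). Its paralogue foxl2a differed by -0.04 (adjusted p = 0.976), and the hormone gene amh was at 1.07, 1.21 and 2.90 CPM and 2.05, 3.36, 2.39 and 2.48 CPM (log2 difference 0.57, SE 0.46, adjusted p = 0.663). The granulosa list's median of -0.09 became 0.30 without control 2 and -0.012 with gene length corrected.

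Erythrocyte and thrombocyte markers were higher in level but low. The 15 erythrocyte and thrombocyte genes summed to 43.9, 37.4 and 80.8 CPM in controls and 128, 123, 174 and 94.8 CPM in mutants, with every mutant above every control. Of them 13 were positive, 2 had p under 0.05 higher, and the median was 0.86, which stayed between 0.73 and 0.98 under the alternatives. The haem synthesis gene alas2 was at 0.468, 1.06 and 1.198 CPM and 3.14, 4.75, 4.40 and 4.33 CPM (log2 difference 2.18, SE 0.69, adjusted p = 0.282). Haemoglobin hbaa1 was at 15.3, 22.8 and 36.3 CPM and 56.6, 59.9, 93.3 and 25.9 CPM (log2 difference 1.25, SE 0.50, adjusted p = 0.377), where mutant 4 overlapped with the controls. Macrophage and neutrophil markers, 27 tested, had a median of 0.32 that ran from -0.04 to 0.77 over left-out libraries and was 0.20 with gene length corrected. Among them the Fc receptor chain gene fcer1g was at 1.07, 1.99 and 1.58 CPM and 4.23, 3.56, 5.94 and 3.96 CPM (log2 difference 1.51, SE 0.40, adjusted p = 0.214). Lymphocyte markers had a median of 0.02 over 10, which ran from -0.40 to 0.36 over left-out libraries. Endothelial markers had a median of 0.04 over 25, which was -0.32 without control 1, 0.22 without control 2 and 0.073 with gene length corrected. Among them the lymphatic receptor gene flt4 was at 13.6, 16.04 and 9.77 CPM and 4.91, 9.23, 6.87 and 6.005 CPM (log2 difference -0.96, SE 0.28, adjusted p = 0.257). The 6 liver-made protein genes tested were at or below 4.02 CPM in each of the 7 libraries. Their median was -0.007, or 0.054 with gene length corrected. At this low level 1 of them had p under 0.05 higher, and the largest log2 difference was 5.16. DESeq2 called vtg1 higher (5.33, adjusted p = 0.0128), while edgeR called 0 of the 6.

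**Figure D4:**
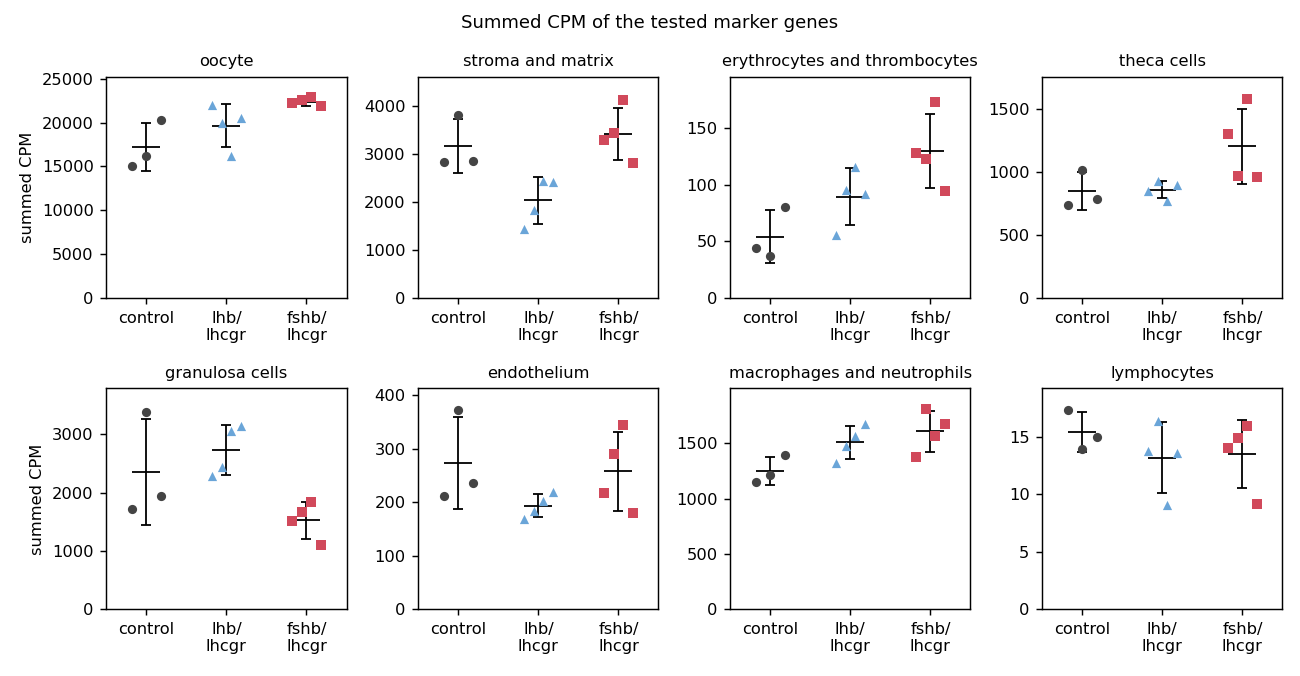
Summed CPM of 8 cell type marker lists in each library, with the mean and SD of each group. Sums of oocyte and erythrocyte markers of the 4 fshb/lhcgr mutants lie above those of the 3 controls, while the sums of stroma, theca, granulosa and lymphocyte markers overlap.

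Junction genes, which join follicle cells to each other, had a median of -0.13 over 55 tested, with 4 at p under 0.05 higher and 5 lower, and epcam as the single call. With gene length corrected the median was -0.04. The tricellular junction gene marveld2b was at 50.4, 17.0 and 17.0 CPM in controls and 12.8, 12.1, 12.7 and 11.9 CPM in mutants (log2 difference -1.18, SE 0.37, adjusted p = 0.282), with control 1 far above the others. The tight junction scaffold gene tjp1a was at 385, 476 and 295 CPM and 284, 241, 343 and 198 CPM (log2 difference -0.53, SE 0.23, adjusted p = 0.385). The oocyte-enriched claudin gene cldng was at 810.1, 1061 and 1188 CPM and 1337, 1528, 1391 and 1552 CPM (log2 difference 0.51, SE 0.17, adjusted p = 0.303). The keratin gene krt91 was at 12.3, 38.7 and 22.1 CPM and 50.6, 39.9, 54.2 and 43.1 CPM (log2 difference 0.94, SE 0.30, adjusted p = 0.289), where control 2 came close to the lowest mutant.

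Mitochondrial ribosomal proteins, nuclear-encoded subunits of the organelle's translation machinery, were higher in level for 69 of 74 genes (all genes 47.5%). Without adjustment 21 had p under 0.05 higher (all genes 5.69%) and 1 lower (all genes 6.11%), and mutants lay above all controls for 19 (all genes 5.26%). The median was 0.28, but 0.12 with gene length corrected, where 5 had p under 0.05 higher. For mrps2 the values were 20.4, 22.6 and 33.6 CPM in controls and 50.1, 40.9, 45.0 and 57.3 CPM in mutants (log2 difference 0.92, SE 0.22, adjusted p = 0.166). Cytosolic ribosomal proteins had a median of 0.19 over 85, with 10 at p under 0.05 higher. It was 0.05 with gene length corrected and 0.02 without control 1, and control 2 was the highest control for 75 of the 85. Oxidative phosphorylation genes had a median of 0.20 over 97, with 9 at p under 0.05 higher and 1 lower, which became -0.03 with gene length corrected.

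Lists with little or mixed difference complete the survey. Apoptosis and p53 genes had a median of -0.07 over 31, complement and inflammation genes -0.19 over 31, and Hippo, Wnt and Notch genes -0.14 over 68. The male pathway list had a median of -0.08 over 8. Single left-out controls turned 3 of these 4 medians, to 0.025 for apoptosis without control 1, and to 0.012 for complement and 0.28 for the male pathway without control 2. For Hippo, Wnt and Notch it was -0.031 without control 2. With gene length corrected the medians were -0.035, -0.25, -0.039 and -0.029 in the same order. In each the counts at p under 0.05 were 5 or fewer in either direction. The complement gene c7b was the widest difference, at 0.268, 0.284 and 0.252 CPM in controls and 122, 67.6, 0.463 and 91.6 CPM in mutants (log2 difference 8.003, SE 1.79, adjusted p = 0.204). Mutant 3 was as low as the controls there and the other mutants were far above them. In lhb/lhcgr mutants c7b stood at 71.8, 9.48, 50.8 and 59.8 CPM. The p53 target tp53inp1 was at 21.6, 39.7 and 16.7 CPM and 13.2, 7.84, 10.03 and 7.74 CPM (log2 difference -1.42, SE 0.35, adjusted p = 0.178), without overlap.

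**Figure D5:**
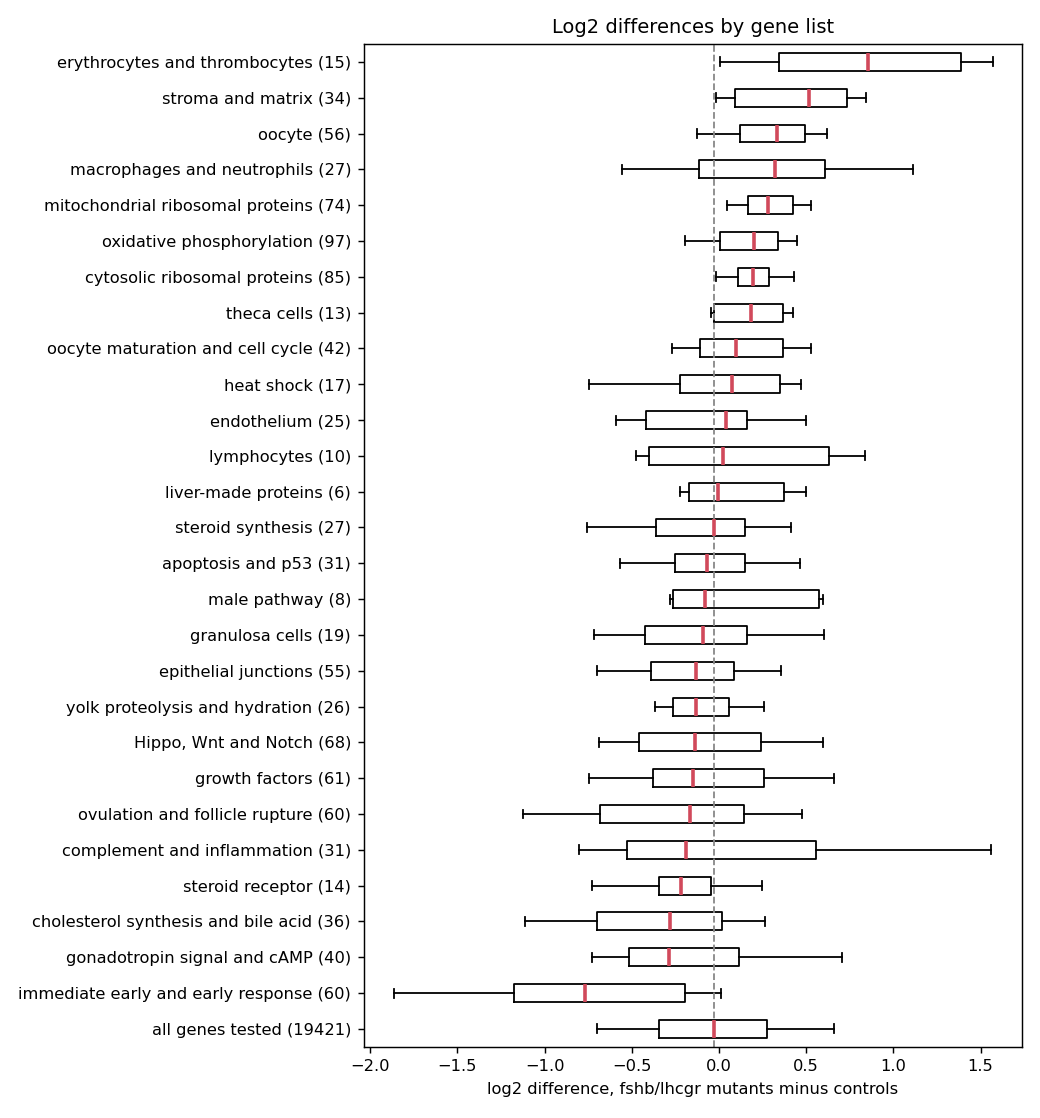
Log2 differences of fshb/lhcgr mutants from controls for the tested members of each gene list, with the number tested in parentheses. Boxes give quartiles, whiskers the 10th and 90th percentiles and red lines medians, and the dashed line marks the median of all genes at -0.03. Early response genes lie furthest below it and erythrocyte and matrix genes furthest above.

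Outside the lists, the uncalled genes with the smallest p among those with separate groups were led on the lower side by ak4, a mitochondrial adenylate kinase. It was at 144, 110.0 and 82.3 CPM in controls and 14.3, 37.0, 18.8 and 33.2 CPM in mutants (log2 difference -2.12, SE 0.35, adjusted p = 0.0518). Midnolin, midn, was at 119.9, 122 and 103 CPM and 49.1, 34.9, 55.3 and 44.6 CPM (log2 difference -1.32, SE 0.24, adjusted p = 0.0649). Arginase 2, arg2, was at 39.9, 48.0 and 37.6 CPM and 8.19, 13.97, 11.3 and 7.18 CPM (log2 difference -2.04, SE 0.37, adjusted p = 0.0649). In each of these 3 the mutants lay well below every control. The anion exchanger gene slc4a2a was at 305, 284 and 210.3 CPM and 88.9, 98.8, 118 and 72.0 CPM (log2 difference -1.49, SE 0.29, adjusted p = 0.102). The citron kinase gene cita, of cytokinesis, was at 41.0, 42.9 and 36.2 CPM and 22.2, 16.2, 15.5 and 22.5 CPM (log2 difference -1.07, SE 0.19, adjusted p = 0.0649). The small GTPase gene rem1 was at 181, 127 and 127 CPM and 50.9, 79.4, 83.5 and 70.0 CPM (log2 difference -1.03, SE 0.19, adjusted p = 0.0649). Both cita and rem1 were also low in lhb/lhcgr mutants, at 18.41 to 20.2 and 67.2 to 80.0 CPM.

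Further down the same order stood phyhiplb (-2.05, adjusted p = 0.0649), the synaptic complexin gene cplx2 (-1.998, adjusted p = 0.0877) and the ectonucleotidase gene entpd8 (-1.78, adjusted p = 0.1004). The FGF receptor-like gene fgfrl1a (-1.66, adjusted p = 0.110) and the RNA helicase gene dhx9 (-0.89, adjusted p = 0.110) closed it. With fosb, jund, fosab and slco2a1 above, these make up the 15 on the lower side. Of those 15, 3 belong to the early response list, which was chosen with earlier results of these data known.

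On the higher side the cartilage proteoglycan gene acana came first, at 1.61, 1.99 and 1.45 CPM in controls and 9.01, 6.26, 11.8 and 7.61 CPM in mutants (log2 difference 2.36, SE 0.45, adjusted p = 0.0892). Every mutant lay well above the highest control. It was at 0.489 to 1.63 CPM in lhb/lhcgr mutants, and the mutants differed by 2.72 (SE 0.41, adjusted p = 0.00524). The mitochondrial import gene chchd4b was at 26.9, 28.0 and 22.4 CPM and 56.2, 50.3, 72.8 and 42.0 CPM (log2 difference 1.103, SE 0.23, adjusted p = 0.111). The chemokine gene cxcl14 was at 9.04, 10.9 and 12.9 CPM and 32.4, 22.7, 44.8 and 18.9 CPM (log2 difference 1.44, SE 0.32, adjusted p = 0.147). The complement C3 copy c3a.4, whose reads its paralogues may share, was at 0.0669, 0.355 and 1.01 CPM and 2.12, 23.5, 7.56 and 9.53 CPM (log2 difference 4.45, SE 0.88, adjusted p = 0.111), with mutant 1 far below the other mutants. The cell cycle phosphatase gene cdc14b was at 66.9, 68.2 and 88.6 CPM and 114, 165, 114 and 138 CPM (log2 difference 0.83, SE 0.19, adjusted p = 0.158).

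The rest of the higher side had smaller or lower-level differences. It held the odorant receptor gene or111-11 (1.98, adjusted p = 0.111), the anosmin gene anos1b (1.98, adjusted p = 0.136) and the monooxygenase gene moxd1 (1.82, adjusted p = 0.167). The N-glycan glucosyltransferase gene alg8 (1.07, adjusted p = 0.159), the tRNA modification gene yrdc (0.80, adjusted p = 0.159) and the kinase gene vrk3 (0.68, adjusted p = 0.133) were among them. With fbxl8 (1.37, adjusted p = 0.140), ccdc43 (0.75, adjusted p = 0.114), mrps2 and myh11a these are the 15.

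Unadjusted p-values of the same comparison stand in the authors' deposited table, where they were under 0.05 for 2189 of 27531 genes, 1044 higher and 1145 lower in the mutants. The log2 fold change of the authors' deposited table had the same sign as the edgeR difference for 19318 of the 19420 tested genes found in it.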

How the data were processed

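Polyadenylated RNA of hand-picked follicles was sequenced with the TruSeq RNA kit, per the labels' protocols. The authors deposited raw counts per gene for 35889 genes, FPKM values, and tables of log2 fold changes, p-values and mean normalised signal per group. The submitters' processing notes list DESeq2 1.20.0. The sources used here name no aligner, counter, strand setting or build. Reads of near-identical copies or overlapping genes cannot be assigned and no coordinates are printed. FPKM served only to derive relative gene lengths.

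Counts were used as deposited. filterByExpr (minimum count 10, minimum total 15) kept 19421 genes. TMM scaling and a robust quasi-likelihood fit of all 11 libraries (edgeR 4.0.16, R 4.3.3) gave 2-sided tests, with genes called at a Benjamini-Hochberg adjusted p under 0.05; the common biological coefficient of variation was 0.384. CPM are counts per 1e+06, scaled with TMM. The scripts were tested on simulated data. Alternatives were other scalings and filters, DESeq2 1.42.0, limma-voom 3.58.1, only the groups compared, a replicate block, a non-robust fit, length correction and each library left out.

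The members and gene lists were chosen with earlier results of these data known. Named genes are those called; the 15 uncalled ones per direction with the smallest p, at least 5 CPM, separate groups and a gene name; up to 4 list members per direction; and 21 fixed genes. The genes fosl1a, jun, junbb, atf3, egr2b, egr4, ier5, btg2, dusp1, crema, ccne1, ccne2, npm2a, zp3a.1, sqlea, cyp51, dhcr7 and mmp28, where outside that rule, were chosen after their values were seen. Intervals cover the spread between libraries, and floors counting error only.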

Additional observations from a re-analysis of the deposited data

Results flagged for a closer look

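In groups of 4 mutants, 4 of the 144 sets of values examined held a library whose gap to its nearest neighbour was above Dixon's 95% limit as a share of the group's range. Chance gives such a gap in about 1 of 20 groups. The oocyte gene org stood at 815 CPM in fshb/lhcgr mutant 4, with the other mutants at 684 to 695 CPM. The ferredoxin reductase gene fdxr, whose protein supplies electrons to steroidogenic enzymes, was at 21.3 CPM in mutant 3 against 23.5 to 23.8 CPM in the others. Ferredoxin, fdx1, was at 103 CPM in mutant 1 against 161 to 165 CPM. The metalloproteinase gene mmp28 was at 22.2 CPM in mutant 1 against 6.02 to 7.80 CPM.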

How the results depend on the processing

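The count of genes higher and lower than controls, 3 and 11, was 5 and 19 without a filter, 124 and 154 with DESeq2, 0 and 6 with limma-voom (1039 higher and 1176 lower at unadjusted p under 0.05), and 6 higher with the compared groups alone. Scaling by library size gave 17 lower, and length correction gave 1 and 7. Left-out libraries gave 0 to 7 higher and 1 to 18 lower. Against lhb/lhcgr mutants the counts of 282 and 178 became 775 and 626 with DESeq2, 567 and 322 with the compared groups alone, 318 lower with scaling by library size, and 75 to 504 and 29 to 291 with a library left out. Labels number replicates, and deviations from the group mean correlated at 0.0987, 0.0808 and -0.0844 between same-numbered controls and mutants. These low values cannot show whether same-numbered samples were collected or prepared together. With the replicate block 2 rose and 6 fell, and 7 fell with length correction added. Uncalled genes near 0 changed sign. Over the left-out libraries cyp17a1 ranged from -0.074 to 0.17, cyp19a1a from -0.60 to 0.71, dusp1 from -0.22 to 0.094, foxl2a from -0.35 to 0.30, lhcgr from -0.71 to 0.19, paqr8 from -0.58 to 0.33 and star from -0.55 to 0.25. With limma-voom cyp19a1a was -0.085 and foxl2a 0.052, dusp1 was 0.016 with block and length correction, and star was 0.0089 with upper quartile scaling. The cause was not tested.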

Other observations

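A few genes were present in one group and nearly absent from the other, counting a gene as absent below 0.5 CPM in every library and as present at a mean of at least 5 CPM with at least 1 CPM in each. Only zgc:162608 was present in controls alone, and 3 genes were present in mutants alone. These were si:dkey-93m18.4, si:dkey-93m18.3 and BX649608.2. The locus si:dkey-93m18.3 had 0 counts in all 3 controls and stood at 10.5, 14.96, 8.18 and 18.26 CPM in the mutants. It was at least 194-fold higher than the floor of 3 counts over the control group, yet its adjusted p was 0.132 in edgeR's test, so it was not called. RefSeq (GRCz12tu) places it next to si:dkey-93m18.4, and both are annotated there as long non-coding RNAs. A further 5 genes were present in some mutants and absent from all controls, and 1 was present in some controls only. Among the 5 was c7b, which encodes a late complement component and stood at 9.48 to 71.8 CPM in lhb/lhcgr mutants. Its neighbour in RefSeq, listed there as c6.2, was measured as c6 at 30.8, 26.5 and 26.0 CPM in controls and 32.5, 71.0, 67.4 and 28.2 CPM in mutants. Mutants 1, 2 and 4 were high for c7b and mutants 2 and 3 for c6, so that mutant 2 was high for both.

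The position of genes was described by their order in RefSeq (GRCz12tu), in which 14569 tested genes could be matched by name. Of the 11 called genes among them, 3 (dnaaf1, f2 and zgc:101810) lie on the chromosome of fshb, which holds 5.42% of the matched genes. Another 1 lies on the chromosome of lhcgr, which holds 3.91% of the matched genes. By the same counts of matched and called genes, lhb lies on that chromosome too. Of the 100 matched genes nearest to fshb, 50 on each side, 19% had p under 0.05. The share was 16.5% of the 85 genes nearest to lhcgr and 11.6% of the 95 nearest to lhb, against 12.5% of all matched genes. None of these neighbours was called. All fshb/lhcgr mutants are homozygous at fshb and lhcgr, so a difference in linked sequence and the mutations themselves cannot be told apart.

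Families formed by a shared start of the gene symbol gave 189 groups of at least 10 tested genes. Egg envelope genes (zp) had the highest share of members at p under 0.05 higher, 5 of 15. All 15 were positive, with a median log2 difference of 0.36, or 0.25 with gene length corrected. Histone lysine methyltransferases (kmt) had the highest share lower, 5 of 11, and demethylases (kdm) followed with 8 of 20. The chromatin remodelling families chd and arid came next, with 4 of 11 and 3 of 10. Their medians were -0.47, -0.33, -0.39 and -0.46. These are long genes, with median lengths 4.88, 2.56, 3.47 and 2.23 times that of all genes. With gene length corrected the medians were -0.18, -0.13, -0.13 and -0.23, and 1, 1, 2 and 2 members had p under 0.05 lower. The families were picked after their values were seen.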
